A study of Homo sapiens with 8 samples.

Results

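The genes described here encode the subunits, activators and assembly chaperones of the human proteasome. They were chosen by name: protein-coding genes whose symbol is PSMA, PSMB, PSMC, PSMD, PSME or PSMG followed by a number, leaving out PSMB8 and PSMB9. The rule found 45 genes among the 58735 rows of the gene table. RNA came from SRA01/04, an immortalized human lens epithelial cell line, in 8 libraries. The 4 shControl libraries came from cells with a control hairpin, labelled wild type, and the 4 shSmurf1 libraries from cells with a hairpin against SMURF1. Both groups had received recombinant human TGF-β2 at 20 ng/ml for 48 hours, so a culture without TGF-β2 is not among the libraries compared. The labels name 1 hairpin group of each kind and no rescue, so an effect of loss of SMURF1 and an effect of the hairpin on other genes cannot be told apart. Replicates are labelled biological, but nothing says how the cultures were separated, so the p-values reflect how these libraries vary, which may be technical.

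The proteasome is the protease that degrades ubiquitin-tagged proteins. Its 20S core is a barrel of stacked rings, with alpha subunits forming the outer rings and beta subunits, which hold the protease sites, forming the inner rings. The 19S particle caps the barrel: its base carries an ATPase ring that unfolds and threads the substrate, and its lid removes ubiquitin. SMURF1 is a ubiquitin ligase that tags receptors and Smad proteins of the TGF-β and BMP pathways for this protease. When proteasome activity falls, the membrane-bound factor NFE2L1 is cleaved and raises most proteasome genes together through antioxidant response elements in their promoters.

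The proteasome genes did not move as one group. Of the 43 genes tested, 3 were higher and 8 lower in shSmurf1 at an adjusted p under 0.05, and 32 did not pass. That is 25.6% of the genes, beside 22.5% of all 15647 genes tested, of which 10.3% were higher and 12.2% lower. The median log2 fold change of the 43 genes was -0.03 against 0.01 for all genes tested, and the median size of change was 0.11 against 0.15. The groups of 4 libraries did not overlap for 3 genes with shSmurf1 higher and 8 with shSmurf1 lower, beside 10.6% and 13.1% of all genes. In this fit the share past the test in either direction was therefore near the background, and what follows describes single genes. Other fits, given further on, called more of the 43 genes. Without shSmurf1 replicate 3 there were 7 higher and 14 lower, beside 16.4% and 17.3% of all genes. With each library's GC trend taken out there were 5 higher and 10 lower, beside 13.2% and 15.1%. With both steps there were 5 higher and 12 lower, beside 13.0% and 15.2%. The share lower was above that of all genes in each of these fits and in the first, and the share higher was not. The gap was not tested. Fold changes are those of edgeR's quasi-likelihood test on the deposited counts, with standard errors (SE), and p-values adjusted by Benjamini-Hochberg over all genes tested. CPM is the usual depth-scaled unit, here computed from library totals scaled by TMM.

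The libraries held 14688651 to 17030394 counts assigned to genes. SMURF1 itself was at 85.8, 93.3, 88.6 and 88.1 CPM in shControl and at 51.4, 50.4, 51.4 and 51.2 CPM in shSmurf1, so the groups were separate and the transcript was still present in every hairpin library. Its log2 fold change was -0.80 ± 0.05 (SE, n = 4 per group, adjusted p = 2.9e-09). Of 10 genes listed as lens epithelium and fibre markers, 3 were tested, among them PAX6 at 29.9 to 39.5 CPM and SIX3 at 15.5 to 18.3 CPM in shControl and 11.5 to 13.8 CPM in shSmurf1. Another 5 (FOXE3, PITX3, MAF, CRYAA and MIP) had 20 counts or fewer over all libraries. The summed level of 4 fibroblast markers was 241 to 261 CPM in shControl and 122 to 132 CPM in shSmurf1, a difference that lay in COL1A2. Of the others, LUM was higher in shSmurf1 (0.13 to 0.56 against 1.97 to 2.50 CPM) and PDGFRA overlapped (3.88 to 5.59 against 3.58 to 5.71 CPM). Lists for endothelium, leukocytes and keratinocytes summed to at most 3.1 CPM in any library, and CD3E and KRT14 were at 0 counts. In these bulk libraries fewer cells of a kind and less RNA per cell cannot be told apart. The part of the COL1A2, LUM and SIX3 differences in the proteasome values was not tested.

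Promoter sequence is shown for 5 of the genes that changed, since proteasome genes are known to share promoter elements. RefSeq windows (GRCh38.p14) were matched for 39 of the 45 genes and the 250 bases before each start were searched on both strands. The letters searched were TGACNNNGC (antioxidant response element), CCAAT (bound by NF-Y) and CCGGAAG (core bound by ETS factors), and 0 matches of different motifs overlapped in the windows of proteasome genes. Stretches that the annotation gives as exons are left out beyond 30 bases. The pieces shown for PSMC2, PSMA2 and PSMG1 lie inside annotated exons of these genes or, for PSMA2, of PSMA2 or MRPL32. Capitals mark the matches, and all 5 genes shown hold at least 1. Of the other genes that changed, PSMD6 and PSMG4 also held a match. PSMB4, PSMD2 and PSMA1 held none, and PSMG3 had no window. PSMA5 (chr1:109426449-109426698, minus strand) and PSMA3 (chr14:58244593-58244830, plus strand), both lower, each hold a pair of CCAAT matches. PSMC2 (chr7:103347599-103347628, plus strand), the ATPase gene that was lower, has CCAAT 31 bases and the reverse complement of CCGGAAG 23 bases before the start. PSMA2 (chr7:42932242-42932271, minus strand), the gene with the largest rise, has CCAAT 84 bases before the start. PSMG1 (chr21:39183616-39183645, minus strand), a chaperone gene that was lower, has a TGACNNNGC match 183 bases before the start. Each sequence reads 5′ to 3′ along its gene.
PSMA5: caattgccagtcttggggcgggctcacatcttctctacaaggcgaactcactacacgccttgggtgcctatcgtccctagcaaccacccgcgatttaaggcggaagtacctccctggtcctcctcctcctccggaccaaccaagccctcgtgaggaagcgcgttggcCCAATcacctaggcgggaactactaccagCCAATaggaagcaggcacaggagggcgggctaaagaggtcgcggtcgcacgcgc
PSMA3: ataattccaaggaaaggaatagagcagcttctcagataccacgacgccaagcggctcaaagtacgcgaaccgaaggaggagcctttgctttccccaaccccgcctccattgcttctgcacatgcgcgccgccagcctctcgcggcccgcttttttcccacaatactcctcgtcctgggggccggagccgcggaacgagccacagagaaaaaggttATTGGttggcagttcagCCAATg
PSMC2: ggtctgtctgagcCCAATttaCTTCCGGtg
PSMA2: ctctgactctcctCCAATcatagagagtaa
PSMG1: ggcccagggcaTGACAGCGCgggcgggcgg

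TGACNNNGC lay in 26.1% of the 46 windows of proteasome genes and in 11.6% of the 15193 windows of protein-coding genes tested. The CCAAT letters lay in 39.1% against 32.7%, and CCGGAAG in 21.7% against 13.6%. Over all 35116 windows of the table, coding or not, the shares were 10.9%, 32.0% and 8.52%. By gene, TGACNNNGC was found for 12 of the 39 matched: 0 of the 2 matched genes that were higher, 1 of the 8 that were lower (PSMG1) and 11 of the 27 that did not pass. CCAAT was found for 1 of 2 higher, 5 of 8 lower and 11 of 27 not past. A match here is a description of the letters only.

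**Figure D1:**
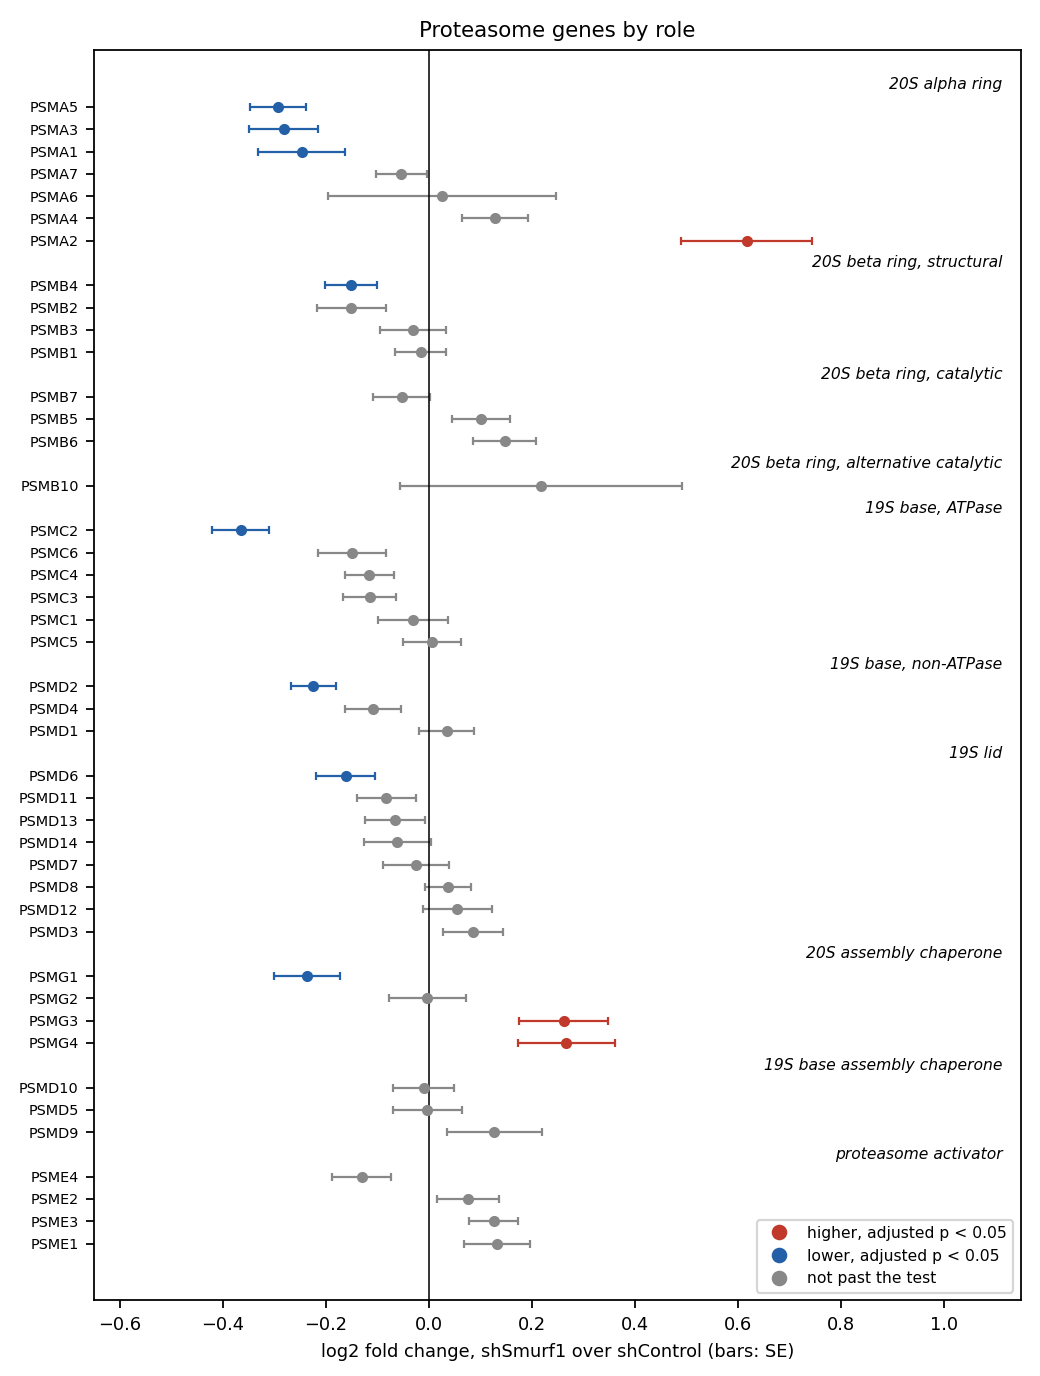
Log2 fold change of shSmurf1 over shControl (x axis, with bars of 1 SE, n = 4 libraries per group) for the 43 tested proteasome genes, grouped by role on the y axis. Red points were higher (3 genes), blue points lower (8 genes) and grey points did not pass; PSMA2 at 0.62 stands far to the right of the others.

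In the alpha ring genes changed in both directions. Of its 7 tested genes 1 was higher (PSMA2) and 3 were lower (PSMA5, PSMA3 and PSMA1), beside 10.3% and 12.2% of all genes tested. The log2 fold changes of the 7 genes ran from -0.29 to 0.62. PSMA2 (chr7:42916857-42932223, minus strand) was at 9.73, 8.83, 11.5 and 11.5 CPM in shControl and at 16.5, 16.2, 18.9 and 12.4 CPM in shSmurf1. Every hairpin library was above every control library, and the closest pair was shSmurf1 replicate 4 and shControl replicate 3. The mean in shSmurf1 was 153.8% of that in shControl, a log2 fold change of 0.62 ± 0.13 (SE, adjusted p = 0.0014), the largest among the 43 genes. PSMA2 encodes an alpha subunit of the gate ring, and its transcript was among the lowest of the core subunits per kilobase.

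PSMA5 (chr1:109399031-109426427, minus strand) was at 93.0, 88.2, 90.3 and 88.7 CPM in shControl and 71.7, 69.9, 78.0 and 74.3 CPM in shSmurf1, without overlap. It fell by 0.29 ± 0.05 on the log2 scale (adjusted p = 0.00054). PSMA3 (chr14:58244831-58272012, plus strand) was at 150.7, 153.5, 131.6 and 146.7 CPM against 125.3, 109.4, 133.3 and 111.1 CPM. Here the groups overlapped, since shSmurf1 replicate 3 lay above shControl replicate 3. The log2 fold change was -0.28 ± 0.07 (adjusted p = 0.0041) with all libraries and -0.34 (adjusted p = 7.2e-06) without shSmurf1 replicate 3. With the GC trend taken out it was -0.20 with all libraries and -0.19 without that one, and it passed in both. PSMA1 (chr11:14504874-14643635, minus strand) was at 27.1, 24.9, 25.3 and 24.98 CPM against 22.0, 20.6, 24.3 and 19.5 CPM, lower in every hairpin library. Its log2 fold change of -0.25 ± 0.08 (adjusted p = 0.041) is near the threshold: leaving out any 1 library other than shSmurf1 replicate 3 ended the call, with adjusted p up to 0.13.

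The other alpha genes did not pass with all libraries as counted. PSMA7, the most abundant per kilobase in its ring, was at 280.3, 250.5, 255.2 and 263.4 CPM in shControl and 259.8, 242.7, 246.4 and 262.2 CPM in shSmurf1, with overlap (log2 fold change -0.05 ± 0.05). PSMA4 had a log2 fold change of 0.13 ± 0.06 (adjusted p = 0.16) and PSMA6 of 0.03 ± 0.22. With the GC trend taken out PSMA4 was higher (0.18, adjusted p = 0.0056). With shSmurf1 replicate 3 left out as well, PSMA4 was higher (0.17, adjusted p = 0.0089) and PSMA7 lower (-0.12, adjusted p = 0.025). PSMA6 was read at only 2.43 to 4.79 CPM over the 8 libraries. PSMA8, the alpha subunit of the testis proteasome, had 0 to 2 counts per library and was not tested.

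In the beta rings 1 of 8 tested genes changed. PSMB4 (chr1:151399534-151401944, plus strand), a structural subunit with no protease site, was at 174.2, 165.0, 159.0 and 169.6 CPM in shControl and 151.0, 143.1, 150.0 and 156.9 CPM in shSmurf1. The groups did not overlap, and the mean was 90.0% of control, a log2 fold change of -0.15 ± 0.05 (adjusted p = 0.036). The call ended without shControl replicate 1, 2 or 4 or without shSmurf1 replicate 1 or 2, where the adjusted p reached at most 0.12. The other structural genes, PSMB1, PSMB2 and PSMB3, had log2 fold changes of -0.02, -0.15 and -0.03. PSMB2 did not pass with all libraries (adjusted p = 0.12) and was lower without shSmurf1 replicate 3 (log2 fold change -0.22, adjusted p = 0.00065). With the GC trend taken out PSMB2 did not pass with all libraries (-0.11, adjusted p = 0.092). It was lower without that one (-0.15, adjusted p = 0.015).

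None of the genes for the 3 catalytic subunits passed with all libraries. PSMB5, the chymotrypsin-like site and the target of bortezomib, had a log2 fold change of 0.10 ± 0.06 (adjusted p = 0.23). PSMB6, the caspase-like site, had 0.15 ± 0.06 (adjusted p = 0.090). PSMB7, the trypsin-like site, was at 214.7, 194.8, 185.0 and 192.8 CPM in shControl and 198.2, 176.6, 195.4 and 189.1 CPM in shSmurf1, with log2 fold change -0.05 ± 0.06. Without shSmurf1 replicate 3, PSMB5 (0.13, adjusted p = 0.033) and PSMB6 (0.19, adjusted p = 0.0030) were higher. After each library's GC trend had been taken out, as described further on, neither of these 2 genes passed.

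The alternative catalytic genes had few counts. PSMB10, the interferon-inducible alternative to PSMB7, was at 2.98, 1.42, 1.99 and 1.96 CPM in shControl and 1.54, 2.76, 2.10 and 3.34 CPM in shSmurf1. The groups overlapped, and the log2 fold change of 0.22 ± 0.27 was not distinguishable from 0 at this depth. PSMB11, the thymus subunit, had 0 to 2 counts per library and was not tested.

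Of the 6 ATPase genes of the 19S base, PSMC2 was lower and the other 5 did not pass with all libraries as counted. PSMC2 (chr7:103344254-103369395, plus strand) was at 136.8, 137.3, 131.2 and 138.3 CPM in shControl and 105.3, 100.4, 115.7 and 100.5 CPM in shSmurf1. The control libraries lay close together and every hairpin library was below all of them. The mean was 77.6% of control, a log2 fold change of -0.37 ± 0.06 (adjusted p = 6.7e-05) and the largest fall among the 43 genes. PSMC4, the most abundant ATPase gene per kilobase, was at 257.9, 243.5, 240.2 and 253.9 CPM against 235.1, 218.9, 234.6 and 230.3 CPM. Its groups did not overlap, but it was short of the threshold (-0.12 ± 0.05, adjusted p = 0.089). PSMC4 was lower without shSmurf1 replicate 3 (-0.12, adjusted p = 0.014). It was also lower with the GC trend taken out (-0.16, adjusted p = 0.0053) and with both steps (-0.20, adjusted p = 0.00019). PSMC3 had -0.11 ± 0.05 (adjusted p = 0.12), PSMC6 -0.15 ± 0.07 (adjusted p = 0.12), PSMC1 -0.03 and PSMC5 0.01. PSMC3 was lower with the GC trend taken out (-0.17, adjusted p = 0.0039) and with both steps (-0.19, adjusted p = 0.0013). It did not pass without shSmurf1 replicate 3 alone (-0.10, adjusted p = 0.082). PSMC6 was at 90.3 CPM in shSmurf1 replicate 3 and at 73.4 to 73.8 CPM in the other hairpin libraries. Without that library it was lower (-0.23, adjusted p = 0.00031). With each library's GC trend taken out, as described further on, it did not pass with all libraries (-0.07, adjusted p = 0.24) or without that one (-0.10, adjusted p = 0.10).

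Of the 3 genes for the other base subunits, which dock ubiquitin receptors and substrates, PSMD2 was lower. PSMD2 (chr3:184298709-184309054, plus strand), the scaffold next to the ATPase ring, had the highest CPM of any proteasome gene: 879.1, 841.5, 820.8 and 846.1 CPM in shControl and 733.9, 701.6, 703.3 and 760.8 CPM in shSmurf1. All hairpin libraries were below all control libraries. The mean was 85.6% of control, a log2 fold change of -0.22 ± 0.04 (adjusted p = 0.00094), with the smallest SE of the 11 genes that passed. PSMD4, a ubiquitin receptor, had -0.11 ± 0.05 (adjusted p = 0.17), and PSMD1, the other large scaffold, 0.03 ± 0.05. PSMD4 was lower without shSmurf1 replicate 3 (-0.14, adjusted p = 0.021). It was also lower with the GC trend taken out (-0.13, adjusted p = 0.043) and with both steps (-0.18, adjusted p = 0.0024).

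In the lid 1 of 8 genes passed the test. PSMD6 (chr3:64010549-64024010, minus strand) was at 84.1, 78.0, 73.4 and 78.3 CPM in shControl and 68.7, 68.3, 71.9 and 71.6 CPM in shSmurf1. The groups were separate by a narrow gap, and the log2 fold change was -0.16 ± 0.06 (adjusted p = 0.049). The call ended without any 1 library other than shControl replicate 3 or shSmurf1 replicate 3 (adjusted p up to 0.17). PSMD8, the lid gene most abundant per kilobase, was at 421.0, 396.5, 399.5 and 424.3 CPM against 424.1, 407.2, 429.6 and 422.2 CPM (0.04 ± 0.04). PSMD14, the deubiquitinase of the lid, had a log2 fold change of -0.06 ± 0.06, and PSMD3, PSMD7, PSMD11, PSMD12 and PSMD13 lay between -0.08 and 0.09. Without shSmurf1 replicate 3, PSMD11 was lower (-0.13, adjusted p = 0.017) and PSMD3 higher (0.13, adjusted p = 0.017). With the GC trend also taken out neither passed (-0.11, adjusted p = 0.054, and 0.10, adjusted p = 0.090). PSMD12 was higher with the GC trend taken out (0.13, adjusted p = 0.017) and with both steps (0.105, adjusted p = 0.0495).

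Summed over the genes of each complex, the 19S transcripts stood at 3085 ± 97.6 CPM (SD, n = 4) in shControl and 2891 ± 71.0 CPM in shSmurf1. The ranges, 2964 to 3192 and 2792 to 2955 CPM, did not overlap. The 20S genes summed to 1604 ± 71.2 and 1539 ± 50.6 CPM, with ranges of 1540 to 1701 and 1467 to 1584 CPM that did overlap. The activator genes summed to 489.7 ± 16.4 CPM in shControl and 515.9 ± 18.5 CPM in shSmurf1, the other way. These sums were not tested, and PSMD2 alone accounts for most of the 19S difference, 846.9 CPM on average in shControl and 724.9 CPM in shSmurf1.

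Genes for the assembly chaperones moved in both directions. PSMG1, which pairs with PSMG2 to seed the alpha ring, was lower, whereas PSMG3 and PSMG4, which pair with each other, were higher. PSMG1 (chr21:39174769-39183851, minus strand) was at 59.8, 62.7, 56.9 and 61.8 CPM in shControl and 50.5, 46.3, 54.2 and 53.5 CPM in shSmurf1, without overlap. Its log2 fold change was -0.24 ± 0.06 (adjusted p = 0.012). PSMG3 (chr7:1567330-1571005, minus strand) was at 24.9, 22.4, 21.4 and 21.6 CPM against 27.4, 23.5, 27.7 and 29.6 CPM. The groups overlapped, because shSmurf1 replicate 2 was below shControl replicate 1, and the log2 fold change was 0.26 ± 0.09 (adjusted p = 0.035). PSMG4 (chr6:3231403-3303373, plus strand) was at 16.4, 14.8, 16.8 and 19.2 CPM against 22.1, 19.3, 19.3 and 20.0 CPM. The groups were only just separate, with a log2 fold change of 0.27 ± 0.09 (adjusted p = 0.048).

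Both rises rest on thin margins. The PSMG3 call ended when control library 2, 3 or 4 or hairpin library 1 or 4 was left out (adjusted p up to 0.12). The PSMG4 call ended when control library 1, 2 or 3 or hairpin library 1, 2 or 4 was left out (adjusted p up to 0.17). PSMG2 was at 57.9, 54.5, 46.8 and 56.0 CPM in shControl and 53.9, 49.7, 59.5 and 51.8 CPM in shSmurf1, with a log2 fold change of -0.0028 ± 0.07. Whether PSMG2 differed from its partner PSMG1 in its response was not tested. None of the 3 tested chaperones of the 19S base passed. PSMD10 (gankyrin) was at 68.6, 69.1, 64.3 and 72.2 CPM against 65.5, 66.9, 72.9 and 66.9 CPM, a log2 fold change of -0.01 ± 0.06. PSMD5 had -0.0028 ± 0.07 and PSMD9 0.13 ± 0.09.

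None of the 4 activator genes passed the test. PSME3, the nuclear activator that opens the core without ATP, was at 265.2, 253.1, 243.9 and 267.3 CPM in shControl and 280.5, 271.2, 290.5 and 281.3 CPM in shSmurf1. All hairpin libraries were above all control libraries, and the log2 fold change of 0.13 ± 0.05 fell short of the threshold (adjusted p = 0.065) in edgeR and was just past it in DESeq2 (adjusted p = 0.047). It also passed without shSmurf1 replicate 3 (0.11, adjusted p = 0.026), with no scaling beyond the library total (0.15, adjusted p = 0.025) and with the GC trend taken out (0.14, adjusted p = 0.0061). PSME1 and PSME2, the interferon-inducible pair, had 0.13 ± 0.06 (adjusted p = 0.15) and 0.08 ± 0.06 (adjusted p = 0.41). PSME4, the large activator known from testis and DNA repair, had -0.13 ± 0.06 (adjusted p = 0.11) with all libraries and -0.17 (adjusted p = 0.0054) without shSmurf1 replicate 3. With the GC trend taken out as well, PSME4 did not pass (-0.08, adjusted p = 0.21).

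**Figure D2:**
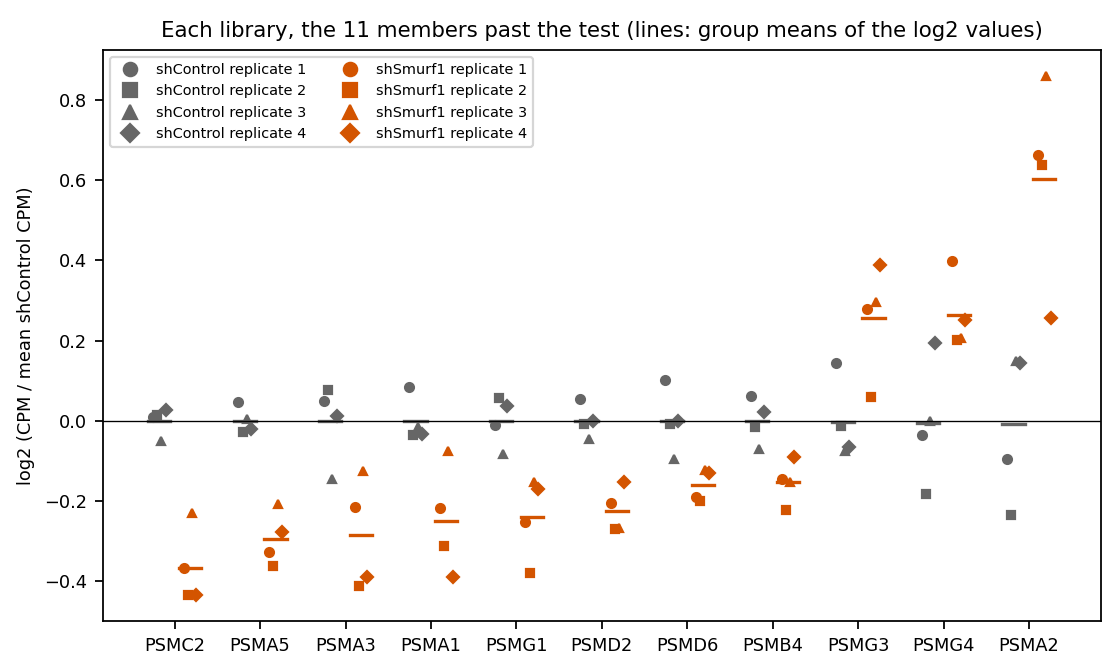
Each library's CPM of the 11 proteasome genes past the test, as log2 of its ratio to the mean CPM of shControl (y axis), with grey symbols for shControl, orange for shSmurf1, 1 marker shape per replicate number and lines for the group means of the log2 values. The groups overlap for PSMA3, where shSmurf1 replicate 3 lies among the controls, and for PSMG3, and they are separate for the other 9 genes.

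The 4 lists of genes around the proteasome were read the same way. The background for each list is the 10.3% higher and 12.2% lower of all genes tested. Of 15 partners outside the naming rule (subunits, bound enzymes, inhibitors and import factors) 0 were higher and 3 lower by edgeR's test, with a median log2 fold change of -0.05. SEM1, the smallest lid subunit, was at 70.1, 58.6, 58.2 and 68.2 CPM in shControl and 58.7, 43.3, 51.0 and 44.3 CPM in shSmurf1, with a slight overlap (log2 fold change -0.37 ± 0.09, adjusted p = 0.0047). UBE3C, a ubiquitin ligase that works at the 26S proteasome, was at 224.8, 231.6, 234.1 and 239.2 CPM against 182.1, 186.2, 193.7 and 187.2 CPM, without overlap (-0.31 ± 0.05, adjusted p = 6.0e-05). ECPAS, a scaffold that binds the 26S particle, was at 218.2, 235.3, 219.7 and 218.8 CPM against 182.3, 182.4, 201.9 and 181.3 CPM (-0.25 ± 0.05, adjusted p = 0.0011). The core maturation factor POMP, the receptor ADRM1 and the inhibitor PSMF1 did not pass.

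Among 10 genes for transcriptional control of the proteasome, 2 were higher and 1 lower. NFE2L1, the factor that raises proteasome genes, was at 547.6, 532.9, 533.5 and 543.6 CPM in shControl and 538.8, 533.0, 489.3 and 547.4 CPM in shSmurf1, with overlap and a log2 fold change of -0.03 ± 0.05. DDI2, the protease that cleaves and activates it, was at 26.6, 25.4, 24.7 and 24.9 CPM against 29.7, 28.4, 31.0 and 28.8 CPM, without overlap (0.21 ± 0.07, adjusted p = 0.040). MAFG, a small Maf partner of that factor, had 0.23 ± 0.08 (adjusted p = 0.046) with overlapping groups. NFYC, a subunit of the factor that binds CCAAT, showed the largest change of the 4 lists: 48.9, 48.9, 47.1 and 46.5 CPM in shControl and 28.3, 30.03, 32.7 and 31.7 CPM in shSmurf1. That is a log2 fold change of -0.64 ± 0.07 (adjusted p = 1.1e-06), while NFYA (0.10 ± 0.06) and NFYB (-0.03 ± 0.06) did not pass. DDI2 lost its call without any 1 library other than shSmurf1 replicate 3 (adjusted p up to 0.10). MAFG lost its call without any 1 library other than replicate 3 of either group (adjusted p up to 0.18).

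Among 16 genes of ubiquitin and delivery, 2 were higher and 3 lower, with a median log2 fold change of -0.06. NPLOC4, a cofactor of the VCP segregase, was at 223.5, 236.4, 225.5 and 244.9 CPM against 300.6, 308.1, 283.1 and 327.2 CPM (0.39 ± 0.05, adjusted p = 1.9e-05), and UBQLN4, a shuttle, had 0.17 ± 0.06 (adjusted p = 0.042). UBA6, an activating enzyme, fell by 0.25 ± 0.06 on the log2 scale (adjusted p = 0.0031). FAF1, another VCP cofactor, fell by 0.16 ± 0.05 (adjusted p = 0.034). The ubiquitin genes UBB and RPS27A had log2 fold changes of -0.08 and -0.14 and did not pass. UBQLN4 lost its call without any 1 library other than shSmurf1 replicate 3 (adjusted p up to 0.15). FAF1 lost its call when control library 1, 2 or 4 or hairpin library 1 or 2 was left out (adjusted p up to 0.12).

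Of 6 genes for the interferon control of the alternative subunits, 3 were higher and 0 lower, beside 10.3% and 12.2% of all genes tested. Their median log2 fold change was 0.24. IRF1 was at 15.3, 15.7, 14.7 and 13.6 CPM in shControl and 21.6, 17.2, 22.2 and 24.9 CPM in shSmurf1, without overlap (0.54 ± 0.11, adjusted p = 0.00089). STAT2 had 0.20 ± 0.06 (adjusted p = 0.017). IRF2 (0.27 ± 0.10, adjusted p = 0.0504) and IRF9 (0.60 ± 0.22, adjusted p = 0.051) fell just short. IRF9 was read at 1.55 to 4.68 CPM and all of its principal transcript is shared with exons of another gene, so its counts are uncertain. In these libraries the known targets among the proteasome genes, PSMB10, PSME1 and PSME2, did not pass, as given above. The STAT2 call ended without replicate 1 or 2 of either group (adjusted p up to 0.061). Over the 4 lists together 7 of 47 genes were higher and 7 lower, 29.8% beside the 22.5% of all genes.

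Chromosomal surroundings moved with several of these values. For each gene the median log2 fold change of up to 25 tested genes on either side was taken. Near chromosome ends fewer were at hand, as for PSMB1 (27 in all), PSMD13 (28), PSMG4 (41) and PSMG3 (47). The surrounding median was under -0.15 for 5 proteasome genes (PSMA3, PSMA5, PSMB2, PSMC2 and PSMC6), 11.6% of the 43, beside 8.59% of all genes tested. Of these 5 genes, 3 were lower. The share of lower calls among all genes with such surroundings is not given here, so this count is not a result about the proteasome genes. For PSMC2 the surrounding median was -0.22, for PSMA3 -0.21 and for PSMA5 -0.20. The genes themselves differed from these medians by -0.14, -0.07 and -0.09 on the log2 scale, in that order. The surrounding median was over 0.15 for PSMA2 (0.20) and PSMD13 (0.15). PSMA2 lay 0.42 above its surroundings, and MRPL32, the gene that starts head to head with it and shares 24 exon bases, also rose, from 34.5 to 45.4 CPM (0.40 ± 0.07, adjusted p = 0.00039). PSMD2, PSMA1, PSMG1, PSMB4 and PSMD6 were lower while their surroundings lay between -0.09 and 0.06. Across the 43 genes the surrounding median and the gene's own change had a Spearman rho of 0.46. With the GC trend removed from the gene's own change, as described below, it was 0.38. Both are descriptions only, since neighbouring genes share the same 8 libraries. PSMA3, PSMA5 and PSMC2 are also low in GC content (36.75, 37.25 and 38.87%), so they recur in the GC description below. Of the genes outside the group, SEM1 (-0.27), UBE3C (-0.29), FAF1 (-0.24), NFYC (-0.15), MAFG (0.37), NPLOC4 (0.37) and SMURF1 (-0.24) also had surroundings beyond 0.15 in their own direction. A difference in copy number between the cells of the groups was not tested.

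**Figure D3:**
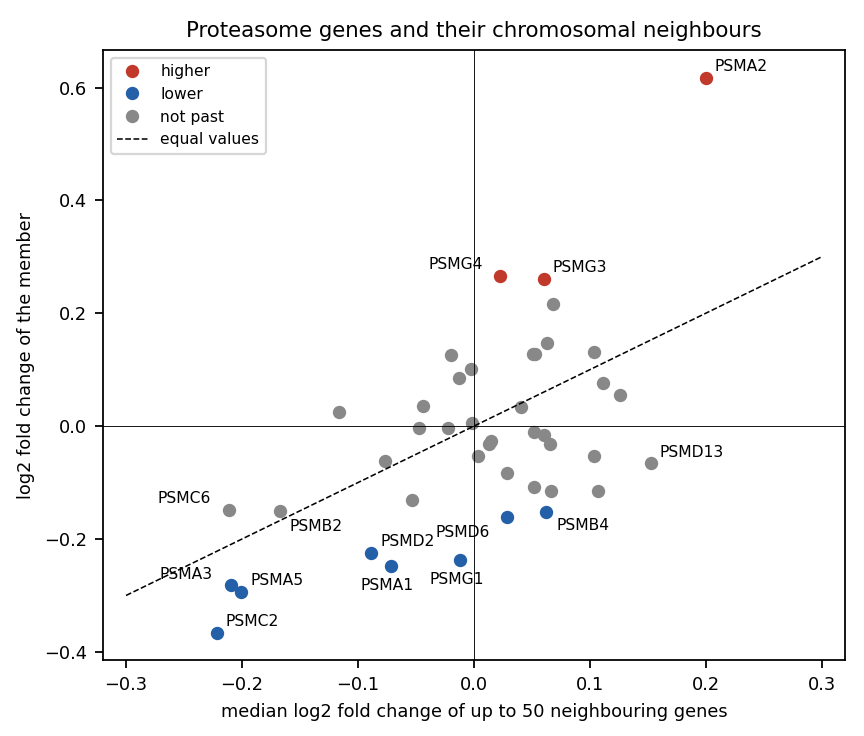
Log2 fold change of each of the 43 tested proteasome genes (y axis) against the median log2 fold change of the tested genes around it (x axis, up to 25 on either side, 27 to 50 in all), with the dashed line at equal values. PSMC2, PSMA3 and PSMA5 lie at the lower left with surroundings of -0.20 to -0.22, and PSMA2 lies at the upper right, above the line.

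Levels per kilobase differed widely among the 43 tested genes, which include assembly chaperones, activators and an alternative subunit beside the standard subunits. In 7 tested genes over 40% of the principal transcript is shared with exons of another annotated gene. These were PSMC1 (82.2%, with NRDE2 on the opposite strand), PSMA6 (81.0%, with AL121594.1 on the same strand), PSMA2 (54.1%), PSMA1 (53.2%), PSMD7 (50.4%), PSMB10 (45.3%) and PSMD9 (43.8%). Their mean shControl levels ran from 1.71 to 38.9 CPM per kb with a median of 6.99. Per kilobase of unshared bases alone they ran from 3.13 (PSMB10) to 78.4 (PSMD7), with PSMC1 at 42.2 and PSMA6 at 16.9. Over all libraries the same-strand genes AL121594.1 (PSMA6), AC010132.3 (PSMA2) and AC018523.2 (PSMA1) held 21, 14 and 0 counts, and NRDE2 held 1997. The 28 genes that share nothing ran from 16.2 to 264 CPM per kb with a median of 73.1. The Spearman rho between shared percentage and CPM per kb was -0.57 over the 43 genes. How the authors' counting treated reads that fall on exons of more than 1 gene, and whether it used strand, could not be learned from the labels or the submitters' notes. The part of such reads in the low levels, and in the changes of PSMA2 and PSMA1, was not tested, so the counts of these 7 genes are uncertain. Outside their principal transcripts, PSMG4 shares 1388 exon bases with SLC22A23 (log2 fold change 0.26 ± 0.12, adjusted p = 0.12) and PSMG3 shares 60 with PSMG3-AS1 (0.46 ± 0.19, adjusted p = 0.096), both on the opposite strand. Processed copies took few reads: 32 pseudogene rows of the family held 444 counts in all, beside 677249 counts of the 45 genes.

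**Figure D4:**
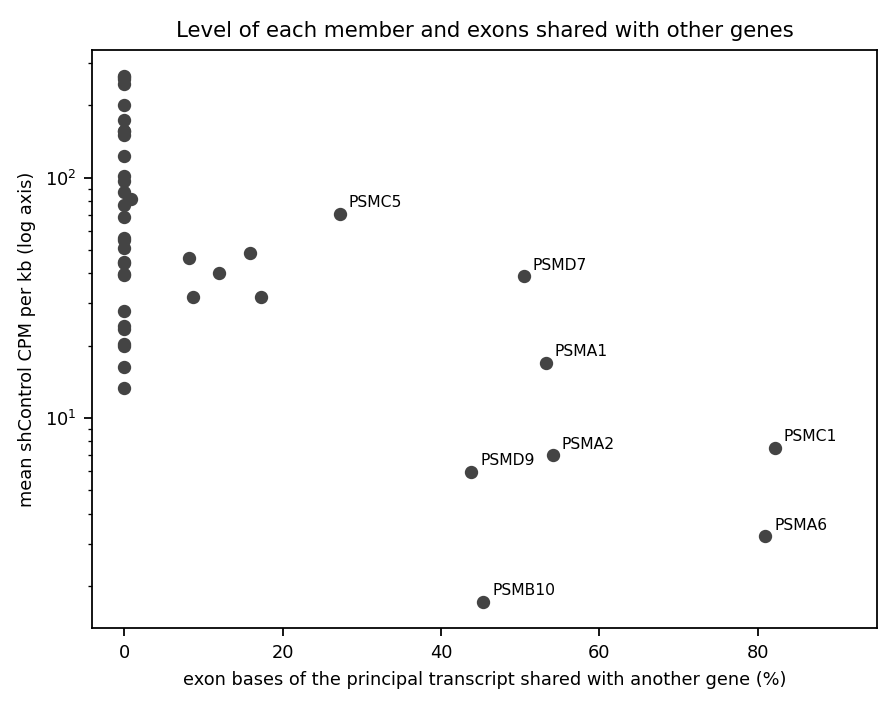
Mean shControl level of the 43 tested genes in CPM per kilobase of the principal transcript (y axis, log scale) against the percentage of its exon bases shared with another annotated gene (x axis). The 7 genes over 40% lie at 1.71 to 38.9 CPM per kb, and the 28 genes at 0% at 16.2 to 264 CPM per kb.

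Library shSmurf1 replicate 3 stood apart from the other hairpin libraries in its dependence on GC content. The smoothed trend of log2 deviation was 0.12 in the lowest GC decile of all genes and -0.19 in the highest for that library, and -0.06 to -0.14 and 0.12 to 0.16 for the other 3. The 4 control libraries ran the same way as shSmurf1 replicate 3, with 0.03 to 0.06 at low GC and -0.01 to -0.08 at high GC, so the trend also differed between most libraries of the groups. For the proteasome genes, GC content and log2 fold change had a Spearman rho of 0.34, and of 0.09 once the trend of each library had been removed. Of the 8 genes under 40% GC, 4 were lower and 0 higher, beside 17.8% lower and 4.12% higher of all tested genes in that range. Of the 18 genes from 40 to 50%, 3 were lower and 1 higher, beside 14.2% and 7.39%. Of the 17 genes at 50% or more, 1 was lower and 2 higher, beside 8.64% and 15.0%. The part of the GC trend in the calls was followed by refitting.

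With the GC trend removed, 5 of 43 genes were higher and 10 lower, beside 13.2% and 15.1% of all genes, or 28.2% in either direction. Among the calls 2 of the 3 rises and 7 of the 8 falls were shared with those given above. PSMA4 (0.18, adjusted p = 0.0056), PSME3 (0.14, adjusted p = 0.0061) and PSMD12 (0.13, adjusted p = 0.017) were added as higher. PSMC3 (-0.17, adjusted p = 0.0039), PSMC4 (-0.16, adjusted p = 0.0053) and PSMD4 (-0.13, adjusted p = 0.043) were added as lower. PSMD6 (-0.08, adjusted p = 0.28) and PSMG3 (0.19, adjusted p = 0.095) no longer passed. With shSmurf1 replicate 3 left out and no GC step, 7 genes were higher and 14 lower, beside 16.4% and 17.3% of all genes, or 33.7% in either direction. With both steps together 5 were higher and 12 lower, beside 13.0% and 15.2%.

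In all 4 of these fits 9 genes passed: PSMA2 and PSMG4 as higher, and PSMA1, PSMA3, PSMA5, PSMB4, PSMC2, PSMD2 and PSMG1 as lower. In the setting with both steps PSMC2 had a log2 fold change of -0.29 and PSMA2 of 0.63. PSMA5 was at -0.18 there and PSMA3 at -0.19, both smaller than the -0.29 and -0.28 of the counts as deposited.

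**Figure D5:**
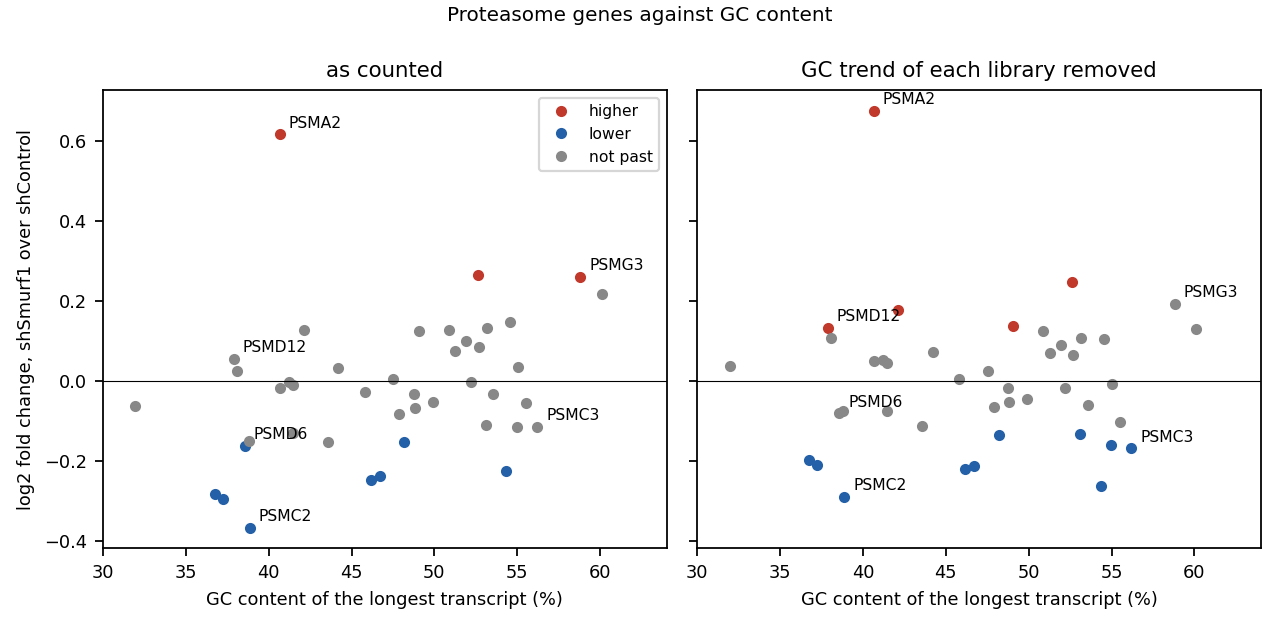
Log2 fold change of the 43 tested genes (y axis) against the GC content of each gene's longest annotated transcript in percent (x axis), from the counts as deposited (left) and after taking each library's GC trend out (right). Red genes were higher (3 on the left, 5 on the right), blue genes lower (8 and 10) and grey genes did not pass.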

How the data were processed

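RNA of 8 libraries was prepared with poly-T selection and random-hexamer priming, per the labels' protocols. The authors deposited raw counts per gene for 58735 Ensembl identifiers. CASAVA, fastp, HISAT2 2.0.5 and featureCounts 1.5.0-p3 are named in the submitters' processing notes. Not given in the sources used here: genome build, annotation, strand setting, and how reads over several genes were handled. All 58735 identifiers were matched to GENCODE 29 (GRCh38), which gave symbols, positions and GC content (longest transcript). Without a strand setting, reads of a gene and an antisense partner cannot be told apart.

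Genes were filtered with filterByExpr (minimum count 10), scaled by TMM and tested with edgeR 4.0.16 in R 4.3.3 (quasi-likelihood F test, Benjamini-Hochberg adjustment over 15647 genes, threshold 0.05). The fit was tested on simulated counts drawn without a GC trend or a deviant library, so that test says nothing about either. The library totals, 14688651 to 17030394 counts, set the precision; PSMA8 and PSMB11 failed the filter. Alternatives were DESeq2 1.42.0, limma 3.58.1 (voom), other scalings and filters, a replicate block, removal of each library's GC trend (lowess, span 0.3) and leaving out each library. The members and gene lists were chosen with earlier results of these data known. Every member past the test is named, with its CPM per library (up to 3 in each role), as is the member of each role with the highest reads per kilobase in shControl, and every gene past the test in the 4 pathway lists, except that a few genes counted in those lists are not reported here by name. Other genes named, and members named for other fits or for shared exons, were chosen after their values were seen. Promoter windows are RefSeq's.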

Additional observations from a re-analysis of the deposited data

Results flagged for a closer look

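Each of the 88 sets of 4 libraries of the 43 tested proteasome genes and SMURF1 was examined for 1 library far from the other 3. Chance flags about 1 in 20 such sets, and 6 were flagged. In 5 of the 6 the library was shSmurf1 replicate 3, higher than the other hairpin libraries, as it was in PSMC6 at 90.3 CPM (others 73.4 to 73.8), PSMD5 at 81.3 CPM (66.0 to 66.3) and PSMD12 at 213.8 CPM (168.1 to 174.6). The same library was at 123.2 CPM for PSMA4 (109.4 to 110.7) and at 93.7 CPM for PSME4 (83.2 to 84.9). The remaining one was PSMA1 in shControl replicate 1, at 27.1 CPM (24.9 to 25.3). Without that library the fall of PSMA1 did not pass (log2 fold change -0.22, adjusted p = 0.12, edgeR). The call also ended without any other single library except shSmurf1 replicate 3, so its loss is not particular to the flagged library.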

How the results depend on the processing

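Of the 11 proteasome genes that passed, 6 (PSMA2, PSMA3, PSMA5, PSMC2, PSMD2 and PSMG1) passed under all 18 alternatives and 0 of the 11 changed direction under any. The count of higher genes was 3 and became 5 with the GC trend removed, 5 with it removed together with the replicate block and 5 with it removed without shSmurf1 replicate 3. The count of lower genes was 8 and became 5 with no scaling beyond the library total, 5 with no filter on low counts and 5 with the replicate block. With 1 library left out the counts ran from 1 to 7 higher and from 5 to 14 lower, and the highest of each was without shSmurf1 replicate 3. For the 47 partner and regulator genes, 7 were higher, with 11 under no scaling and 4 with the replicate block, and 7 were lower, with 12 with the GC trend removed, 12 with the replicate block added to that and 11 with the trend removed without shSmurf1 replicate 3. Leaving out 1 library gave 2 to 11 higher and 6 to 13 lower in those lists. Over all genes it gave 1216 to 2601 higher and 1547 to 2747 lower, the most without shSmurf1 replicate 3. The cause of these moves was not tested. No shared deviation was seen between same-numbered libraries: correlations of their deviations from the group means were 0.032, -0.012, -0.067 and 0.029. Whether replicate numbers pair the cultures is not known from the labels. Genes that did not pass and lay near 0 could change sign. Of those given as the most abundant of their role, these were PSMD10 (0.0115 under no scaling, 0.0464, 0.0470 and 0.05 in the GC fits, -0.0428 to 0.0145 with a library left out), PSMD8 (-0.0069, -0.0078 and -0.0456 in the GC fits) and PSMG2 (0.0191 under no scaling, -0.0649 to 0.0325 with a library left out). For the 2 genes not tested, counts of 0 to 2 per library limit any statement.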
